A study of Mus musculus with 4 samples.

Results

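The lysosomal hydrolases and cathepsins are a set of 40 listed genes for the enzymes that break down proteins, sugar chains and lipids in the lysosome, together with proteins of the lysosomal membrane and of its proton pump. The genes were chosen from a list by name and not by their values. Of the 40, 37 were measured by a probe set with 1 gene symbol, out of 17097 such genes in all, and Neu1, Idua and Cd63 were not used here. Expression was measured on Affymetrix MG-430PM arrays in total RNA of 4T1Ch9 tumors, a mouse triple-negative breast cancer (TNBC) line tagged with cherry and of Balb/c origin. Wild-type female Balb/c mice aged 6 to 8 weeks received 50000 cells in the mammary fat pad, and the tumors were established for 10 days. The mice then received MEKi (trametinib, an inhibitor of the kinase MEK) at 1 mg/kg or its vehicle of PEG and solutol daily for 7 days, with 2 arrays for each label. Each value is a log2 expression level after RMA, so that a difference of 1 is a doubling. A difference by label is the mean of the MEKi arrays minus that of the vehicle arrays, and a difference between same-numbered arrays is MEKi minus vehicle.

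The lysosome is an acidic organelle in which hydrolases digest material taken up from outside the cell or delivered by autophagy. A proton pump, the V-ATPase, keeps its lumen acidic, and most hydrolases are active only at that pH. Many of these genes are read in every cell, and phagocytes such as macrophages are known for high levels of cathepsins. Transcription factors of the MiT/TFE family, such as TFEB, are known to bind a short palindrome in the promoters of many lysosomal genes.

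The similarity of the arrays over all probe sets did not follow their labels. Over these 45037 probe sets, MEKi 1 correlated best with vehicle 2 (r = 0.992) and MEKi 2 with vehicle 1 (r = 0.978), while the 2 arrays labelled MEKi correlated at 0.927 and the 2 labelled vehicle at 0.959. Genes known as output of the MAPK pathway, which MEKi blocks, were lowest in MEKi 1 for 14 of 16 and highest in MEKi 2 for 13 of 16. Markers of B cells had a median level of 9.73 in MEKi 1 and 9.50 in vehicle 2, and of 4.18 and 4.17 in MEKi 2 and vehicle 1. T cell markers (medians 9.95, 5.39, 6.51 and 9.88 in MEKi 1, MEKi 2, vehicle 1 and vehicle 2) and lymph node stroma markers (11.53, 3.82, 3.73 and 11.28) split the arrays in the same way. Tumor epithelial markers had medians of 7.89 and 6.54 in MEKi 1 and MEKi 2, and of 8.79 and 8.25 in vehicle 1 and vehicle 2. Their median difference by label was -1.01. Of the 13, 6 were lowest in MEKi 1 and 6 in MEKi 2, while 5 were highest in vehicle 1 and 6 in vehicle 2. Both MEKi arrays lay below both vehicle arrays for Krt7, Krt19, Cldn3, Cldn4, Cldn7 and Esrp1, an order found for 10.2% of all genes. For the other epithelial markers the labels overlapped. The summed linear level of the epithelial markers was 7213, 12588, 21179 and 11965, highest in vehicle 1 and lowest in MEKi 1. The arrays are therefore named by their labels throughout, and each result is given by label and for each array. Some neutrophil markers also followed the labels. S100a8 was at 9.99 and 11.10 in the MEKi arrays and 6.17 and 7.70 in the vehicle arrays, and S100a9 was at 10.29 and 11.87 against 7.09 and 7.92. Ngp, Camp and Cxcr2 were also higher in both MEKi arrays, an order found for 11.0% of all genes. For Csf3r, Ltf, Lcn2, Elane and Mpo the labels overlapped, and Ltf was lower in MEKi by label (-1.25). Whether the labels describe the treatment of each tumor was not tested. In RNA of whole tumors, fewer cells of a type and less RNA per cell cannot be told apart.

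No lysosomal gene passed the test between the labels. A gene was called in limma where its fold change exceeded 1.5 with p under 0.05 and adjusted p under 0.1. By this rule 0 of 37 members were called, as were 0 of the 45037 probe sets (0% of those tested). Limma gave an unadjusted p under 0.05 for 406 probe sets and 0 members, and the calls stayed at 0 when the variances were not moderated. The lowest unadjusted p of a member was 0.0749, for Ctsk, with an adjusted p of 1. By label, 29 members were lower in MEKi and 8 were higher, while of all 17097 genes 8168 were lower and 8929 higher. The median difference was -0.15 for the members against 0.01 for all genes. The differences ran from -1.54 for Ctsk to 0.44 for Scarb2, with standard errors from 0.16 to 0.63 (n = 2 arrays a label). With 1 array left out at a time the median lay between -0.27 (without vehicle 2) and -0.06 (without vehicle 1). Centring the arrays on tumor epithelial genes turned it to 1.15, with all genes at 1.32, and this shift common to all genes also turned the sign of Ctsf, Asah1 and Atp6v0d2.

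Both arrays labelled MEKi lay below both labelled vehicle for 11 of the 37 members, which were Lamp1, Ctsc, Ctsf, Ctsk, Ctss, Hexa, Gla, Man2b1, Npc1, Grn and Atp6v0d1. Among all genes this order was found for 10.2%. Gaps could be narrow, as for Man2b1, with 10.90 in MEKi 1 and 10.91 in vehicle 2. In the further probe sets of Ctsc, Ctsf, Gla and Grn the labels overlapped, and those of Ctsf and Gla lay below the median of all probe sets. The reverse order, with both MEKi arrays on top, was found for Smpd1 alone among the members and for 11.0% of all genes. For the remaining 25 members the labels overlapped.

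The same-numbered arrays of the 2 labels gave different pictures. The level in MEKi 1 was below that in vehicle 1 for 31 of 37 members and for 8448 of all 17097 genes. The median difference was -0.40 for the members against 0.01 for all genes. The difference was over 1.5-fold lower for 13 members, against 15.7% of all genes, and over 1.5-fold higher for 0 members, against 13.0%. MEKi 2 exceeded vehicle 2 in 19 members and fell short of it in 18, and of all genes 8842 were higher and 8251 lower. The median was 0.01 for the members against 0.02 for all genes. Here 6 members were over 1.5-fold higher, against 15.6% of all genes, and 3 were over 1.5-fold lower, against 16.0%. These are differences between single arrays and have no replicate check.

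**Figure D1:**
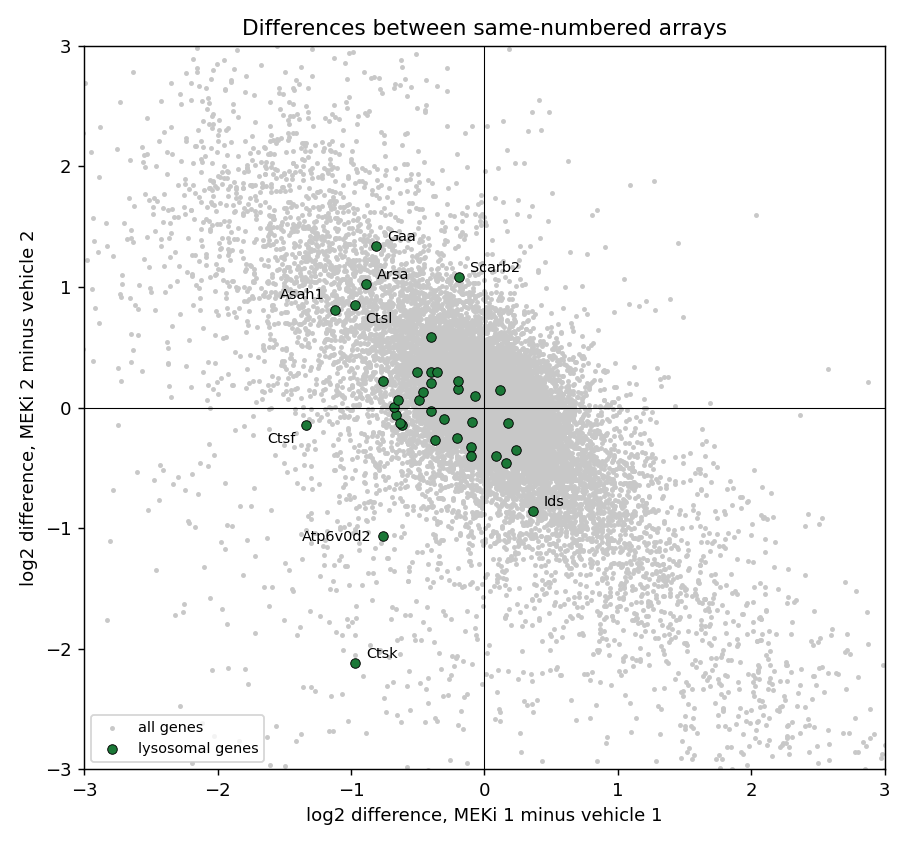
Log2 difference between MEKi 1 and vehicle 1 (x axis) against that between MEKi 2 and vehicle 2 (y axis), with the 37 measured lysosomal genes in green and all genes in grey, of which 392 lie beyond the plotted limits of 3 on either axis. 31 lysosomal genes lie left of 0, while 19 lie above 0 and 18 below it.

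The arrays of one label also differed between themselves. MEKi 2 was over 1.5-fold higher than MEKi 1 in 6 members, against 17.9% of all genes, and over 1.5-fold lower in 3, against 16.1%. Vehicle 1 was over 1.5-fold higher than vehicle 2 in 6 members, against 12.7% of all genes, and over 1.5-fold lower in 0, against 12.3%. Vehicle 1 was above vehicle 2 in 29 of 37 members and in 8216 of all 17097 genes. The median difference was 0.32 for the members against -0.02 for all genes. Vehicle 1 was the highest of the 4 arrays for 21 members (56.8%, against 20.1% of all genes). The lowest array was MEKi 1 for 19 members (51.4%, against 30.0% of all genes) and MEKi 2 for 12 (32.4%, against 27.2%).

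The highest pair of arrays was MEKi 2 and vehicle 1 for 18 members (48.6%, against 30.0% of all genes), among them Ctsl, Ctsb, Ctsd, Gaa, Arsa and Asah1. It was both vehicle arrays for 11 members (29.7%, against 10.2%), and MEKi 1 and vehicle 2 for 4 (10.8%, against 29.5%). The levels of the members added up, after the log was undone, to 76587 and 87054 in MEKi 1 and MEKi 2, and 102860 and 79242 in vehicle 1 and vehicle 2. That sum was thus highest in vehicle 1 and lowest in MEKi 1.

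**Figure D2:**
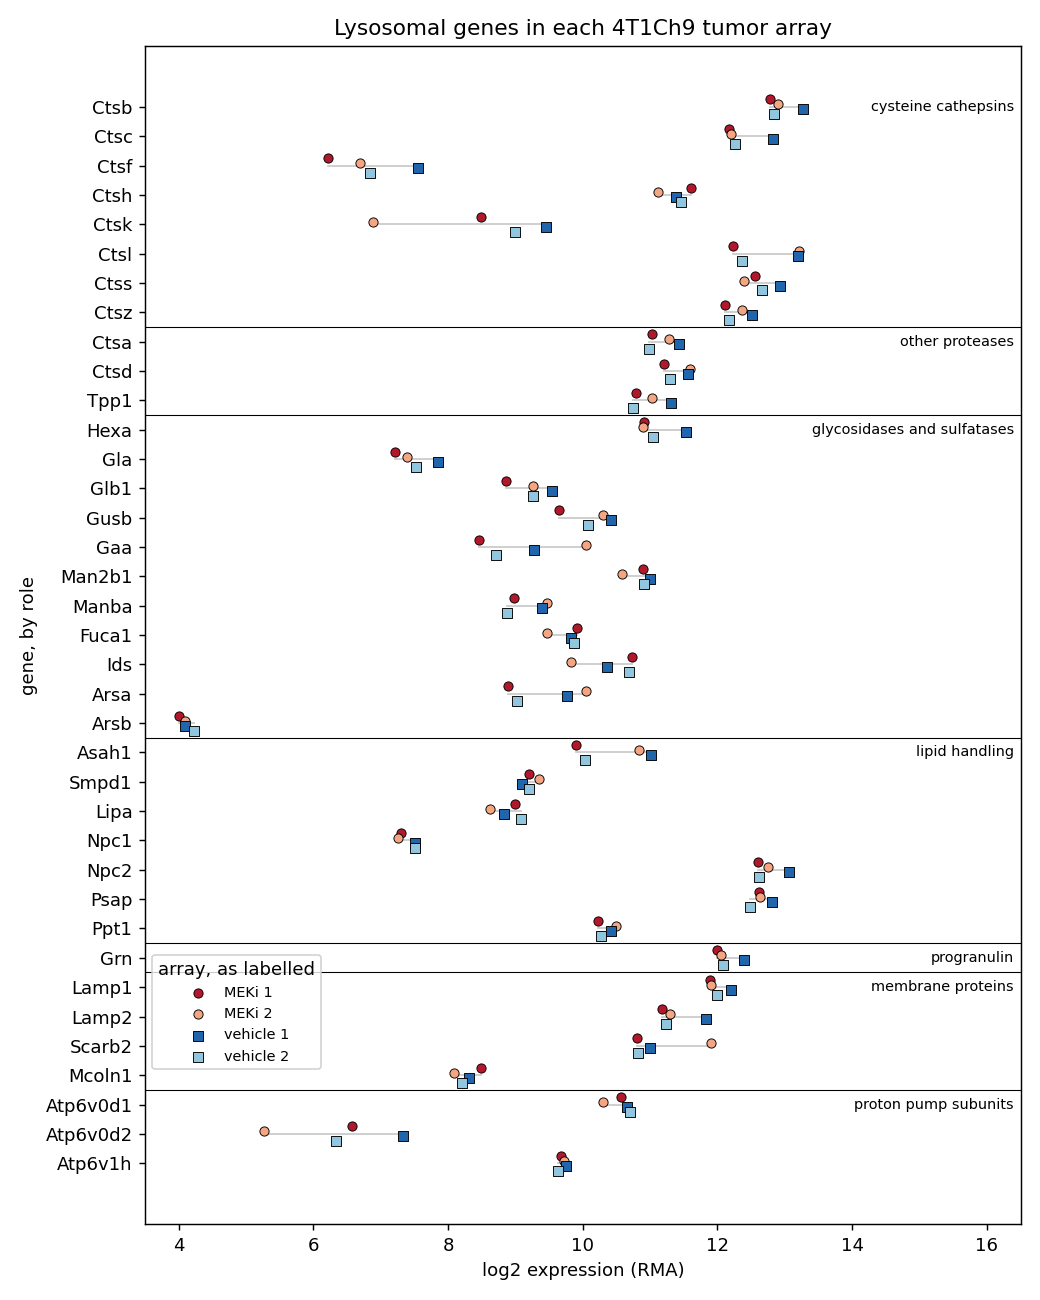
Log2 expression (x axis) of each measured lysosomal gene (y axis, by role), with a point for each array and a line over the range of the 4 arrays. Vehicle 1 is the highest array for 21 of 37 genes, and Ctsk has the widest range.

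The range over the 4 arrays was over 1 log2 unit for 7 members and under 0.5 for 18. The median range was 0.50 for the members, 0.55 for all genes and 0.72 for the 10577 genes brighter than the median of all probe sets. A range over 1 was found for 25.4% of all genes and for 35.8% of those brighter genes. All 4 arrays lay above the median of all probe sets (5.15) for 36 members, and Arsb, a sulfatase of dermatan sulfate, lay near the floor of the arrays at 4.00, 4.10, 4.09 and 4.22 in MEKi 1, MEKi 2, vehicle 1 and vehicle 2.

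The promoters of the members were read from the RefSeq windows of GRCm38.p6, which run from 250 bases before the start of a gene to 50 after it. The motif searched was CACGTG, the E-box palindrome, and its longer form TCACGTGA, which contains it and is the core of the element that TFEB binds. Both read the same on the 2 strands. Of the 37 measured members, 31 had a window, and 11 of these held CACGTG (35.5%, against 7.15% of the 32851 windows). TCACGTGA was found in 5 members (16.1%, against 0.974% of windows), namely Ctsa, Ctsd, Mcoln1, Atp6v0d1 and Gla. The units of these shares differ. Those of the members count genes, which had 33 windows, and those of the background count windows, which belong to 27025 genes. The other members with CACGTG were Lamp1, Glb1, Gaa, Ctsl, Arsa and Ctsf. The stretches around the longer form in these 5 members, around the 4 copies of CACGTG in Lamp1 and around the motif in Gaa, Arsa and Ctsf, whose levels ranged by over 1 log2 unit, are shown 5′ to 3′ on the strand of the gene, with the motif in capitals. They lie at chr2:164833738-164833806 (Ctsa, plus strand), chr7:142387897-142387948 (Ctsd, minus), chr8:3500426-3500502 (Mcoln1, plus), chr8:105566039-105566090 (Atp6v0d1, minus), chrX:134601171-134601255 (Gla, minus), chr8:13159078-13159173 (Lamp1, plus), chr11:119267801-119267850 (Gaa, plus), chr15:89477413-89477462 (Arsa, minus) and chr19:4855064-4855113 (Ctsf, plus).
Ctsa: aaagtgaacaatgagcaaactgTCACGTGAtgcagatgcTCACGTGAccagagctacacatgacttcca
Ctsd: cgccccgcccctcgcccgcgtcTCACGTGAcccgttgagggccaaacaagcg
Mcoln1: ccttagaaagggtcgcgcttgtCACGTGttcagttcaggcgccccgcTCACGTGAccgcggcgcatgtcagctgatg
Atp6v0d1: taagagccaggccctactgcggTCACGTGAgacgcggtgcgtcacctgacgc
Gla: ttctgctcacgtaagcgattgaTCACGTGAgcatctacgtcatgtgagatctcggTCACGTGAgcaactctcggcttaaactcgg
Lamp1: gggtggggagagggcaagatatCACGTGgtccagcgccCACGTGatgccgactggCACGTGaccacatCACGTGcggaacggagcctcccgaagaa
Gaa: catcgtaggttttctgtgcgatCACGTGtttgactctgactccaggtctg
Arsa: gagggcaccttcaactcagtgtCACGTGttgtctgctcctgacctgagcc
Ctsf: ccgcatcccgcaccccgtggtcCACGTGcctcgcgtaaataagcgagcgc

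The members were then split by the palindrome. The 11 members with CACGTG had a median difference of -0.63 between MEKi 1 and vehicle 1, and 10 of them were lower in MEKi 1. The 20 members with a window but no CACGTG had a median of -0.39, and 16 were lower. Between MEKi 2 and vehicle 2 the medians were 0.01 and 0.02, and by label they were -0.06 and -0.16. The difference between these classes was not tested.

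Among the 8 cysteine cathepsins, the main class of lysosomal proteases, 6 were highest in vehicle 1 and 7 were lower in MEKi 1 than in vehicle 1. Ctsk, a collagen-degrading protease best known from osteoclasts and also made by fibroblasts, had MEKi 1 at 8.48, MEKi 2 at 6.88, vehicle 1 at 9.45 and vehicle 2 at 8.997. Both MEKi arrays lay below both vehicle arrays, and MEKi 2 lay furthest down. The difference by label was -1.54 (SE 0.63, n = 2 arrays a label, adjusted p = 1 in limma), and it was -0.74 without MEKi 2 and -2.35 without MEKi 1.

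The order of the arrays for Ctsk, with vehicle 1 on top, then vehicle 2, MEKi 1 and MEKi 2, was shared by 4 of the 10 fibroblast markers. Col1a1 had levels of 9.06, 7.73, 10.09 and 9.55 in MEKi 1, MEKi 2, vehicle 1 and vehicle 2, and Lum, a collagen-binding proteoglycan, had 9.26, 7.38, 10.29 and 9.98. Col3a1 (13.03, 11.42, 13.50 and 13.20) and Postn (10.62, 9.66, 11.64 and 11.13) had the same order of arrays. So did genes outside this list: the members Ctss, Hexa and Man2b1, the epithelial marker Krt7 and the macrophage marker Lyz2. Both MEKi arrays lay below both vehicle arrays for 10.2% of all genes, and this order is 1 form of that. Of the 10 fibroblast markers, 6 were lowest in MEKi 2, and their summed linear level was 14726, 8809, 20532 and 17052. The other 6 markers had other orders: Pdgfra, Pdgfrb and Dcn were highest in MEKi 2, the collagen gene Col1a2 in MEKi 1 (5.26, 3.80, 5.24 and 4.50), Fap in vehicle 2 and the matrix gene Fbln1 in vehicle 1 (6.45, 8.23, 8.42 and 7.09). Of the 6 measured osteoclast-like markers, Calcr (3.47 to 3.78) and Oscar (3.81 to 4.22) were near the floor in all arrays, while Acp5 lay between 10.38 and 10.99 and Itgb3 between 8.15 and 8.34. Tnfrsf11a lay between 4.90 and 5.47, and Ocstamp was highest, at 7.36, in MEKi 2, the array with the lowest Ctsk. The member Atp6v0d2, known from osteoclasts and macrophages, was lowest in MEKi 2 (5.27) and highest in vehicle 1 (7.33), as was Ctsk. The part of fibroblast and of osteoclast-like content in the level of Ctsk was not tested.

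**Figure D3:**
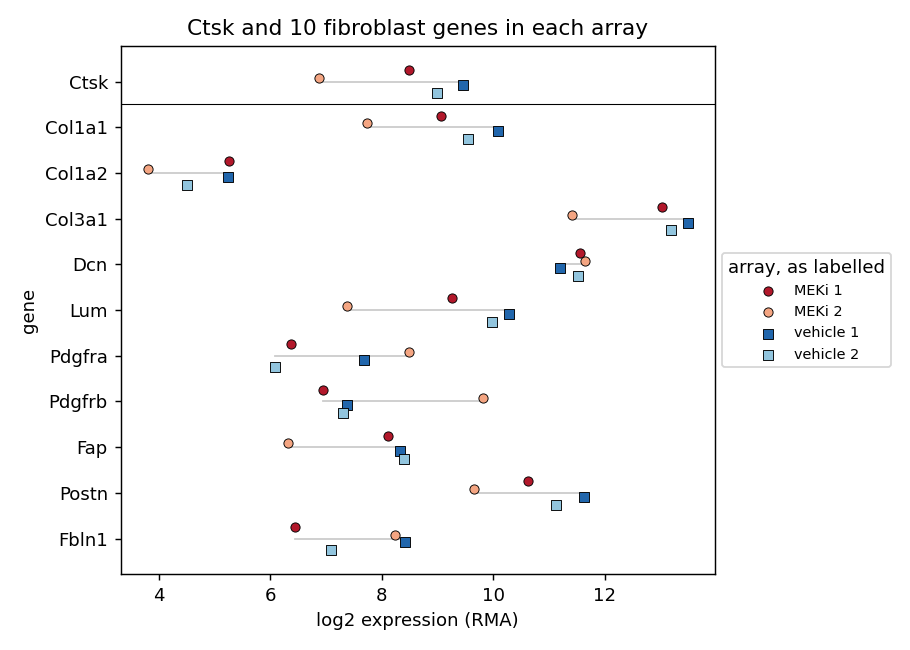
Log2 expression (x axis) of Ctsk and of 10 fibroblast genes (y axis), with a point for each array and a line over the range of the 4 arrays. Ctsk, Col1a1, Col3a1, Lum and Postn each have the order vehicle 1, vehicle 2, MEKi 1, MEKi 2 from high to low. The other fibroblast genes do not.

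Ctsf, a cathepsin known from antigen processing in macrophages, had MEKi 1 at 6.22, MEKi 2 at 6.69, vehicle 1 at 7.55 and vehicle 2 at 6.83. Vehicle 1 stood above the other arrays, and the labels did not overlap. The difference by label was -0.74 (SE 0.35, adjusted p = 1 in limma), and -0.38 without vehicle 1. The further probe set of Ctsf was near the floor in all arrays.

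Ctsl, which cleaves proteins inside the lysosome in most cell types, was at 12.23 and 13.20 in the MEKi arrays and 13.20 and 12.36 in the vehicle arrays. The highest arrays were thus MEKi 2 and vehicle 1, and the difference by label was -0.06. Ctsb, a widely expressed cathepsin, ranged from 12.78 to 12.90 in MEKi and from 12.84 to 13.27 in vehicle. All 3 of its further probe sets were also highest in vehicle 1.

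Ctss, the cathepsin that trims the invariant chain of MHC class II, lay between 12.39 and 12.56 in MEKi and between 12.66 and 12.93 in vehicle. Ctsc, which activates the serine proteases of cytotoxic granules, lay between 12.17 and 12.20 in MEKi and between 12.26 and 12.83 in vehicle. For both, vehicle 1 was the highest array and the labels did not overlap. In the further probe sets of Ctsc the labels overlapped. Ctsz, a carboxypeptidase, had the order of arrays of Ctsb, with MEKi 1 at 12.11, MEKi 2 at 12.37, vehicle 1 at 12.51 and vehicle 2 at 12.17. Ctsh, an aminopeptidase, was the only cysteine cathepsin that was highest in MEKi 1, at 11.61, and its lowest level was 11.11, in MEKi 2.

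For the other 3 proteases the labels overlapped, and in each of them MEKi 1 was lower than vehicle 1 while MEKi 2 was higher than vehicle 2. Ctsd, the main aspartic protease of the lysosome, was at 11.21 and 11.59 in MEKi and 11.56 and 11.29 in vehicle. Ctsa, which protects beta-galactosidase and neuraminidase, was at 11.02 and 11.29 in MEKi and 11.42 and 10.99 in vehicle. Tpp1, the tripeptidyl peptidase lost in a form of neuronal ceroid lipofuscinosis, was at 10.80 and 11.03 in MEKi and 11.30 and 10.74 in vehicle. Their differences by label were -0.05 for Ctsa, -0.03 for Ctsd and -0.11 for Tpp1. In the second probe set of Tpp1, MEKi 2 lay below vehicle 2, at 9.18 against 9.23.

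Among the 11 measured glycosidases and sulfatases, 9 were lower in MEKi 1 than in vehicle 1, and 5 had a higher level in MEKi 2 than vehicle 2 had. Gaa, the acid glucosidase that digests glycogen and is deficient in Pompe disease, had MEKi 1 at 8.46, MEKi 2 at 10.04, vehicle 1 at 9.27 and vehicle 2 at 8.71. MEKi 2 was the highest array and MEKi 1 the lowest, so the arrays of one label lay at both ends. The difference by label was 0.26 (SE 0.63, adjusted p = 1 in limma) and turned to -0.53 without MEKi 2.

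Arsa, the sulfatase that is deficient in metachromatic leukodystrophy, had MEKi 1 at 8.88, MEKi 2 at 10.05, vehicle 1 at 9.77 and vehicle 2 at 9.03. MEKi 2 and vehicle 1 again lay above MEKi 1 and vehicle 2. By label Arsa differed by 0.07 (SE 0.53, adjusted p = 1 in limma), and it lay between -0.52 (without MEKi 2) and 0.65 (without MEKi 1). Gusb, beta-glucuronidase, had the same pair on top, with 10.30 in MEKi 2 and 10.42 in vehicle 1 against 9.65 in MEKi 1 and 10.08 in vehicle 2. Its second probe set showed a wider split, with 7.78 and 7.97 in that pair against 6.33 and 6.68.

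Hexa, the alpha subunit of the hexosaminidase that is lost in Tay-Sachs disease, was at 10.91 and 10.90 in MEKi and 11.53 and 11.04 in vehicle. Gla, the galactosidase deficient in Fabry disease, was at 7.21 and 7.39 in MEKi and 7.84 and 7.52 in vehicle. In both the labels did not overlap, and the differences by label were -0.38 for Hexa and -0.38 for Gla. In the further probe set of Gla, which was dim, the labels overlapped. Glb1, the acid beta-galactosidase, was highest in vehicle 1 at 9.54 and lowest in MEKi 1 at 8.86.

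Ids, which removes sulfate from heparan and dermatan sulfate, had the opposite order to Arsa, with 10.73 in MEKi 1 and 10.68 in vehicle 2 against 9.83 in MEKi 2 and 10.36 in vehicle 1. Fuca1, the lysosomal fucosidase, was also highest in MEKi 1 and vehicle 2, at 9.92 and 9.87, and lowest in MEKi 2 at 9.47. Manba, the beta-mannosidase, was at 8.98 and 9.47 in MEKi and 9.39 and 8.88 in vehicle. Man2b1, an alpha-mannosidase, was lowest in MEKi 2 at 10.58, and its other arrays lay between 10.90 and 10.99.

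Of the 7 genes of lipid handling, 5 were lower in MEKi 1 than in vehicle 1 and 5 had a higher level in MEKi 2 than vehicle 2 had. Asah1, the acid ceramidase, had MEKi 1 at 9.89, MEKi 2 at 10.84, vehicle 1 at 11.01 and vehicle 2 at 10.03. MEKi 2 and vehicle 1 lay above MEKi 1 and vehicle 2. The difference by label was -0.15 (SE 0.52, adjusted p = 1 in limma), and it was 0.32 without MEKi 1 and 0.34 without vehicle 1.

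Npc1 and Npc2 carry cholesterol out of the lysosome. Npc1 had a range of 0.26, with MEKi 1 at 7.30, MEKi 2 at 7.26, vehicle 1 at 7.50 and vehicle 2 at 7.51. The arrays of each label lay close together and did not overlap, and the difference by label was -0.23. Npc2 was highest in vehicle 1 at 13.06, and its other arrays lay between 12.60 and 12.75.

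Smpd1, the acid sphingomyelinase, was at 9.21 and 9.35 in MEKi and 9.09 and 9.20 in vehicle, the single member with both MEKi arrays on top. MEKi 1 and vehicle 2 were nearly level. Smpd1 differed by 0.13 between the labels, and its second probe set gave 0.45. Lipa, the acid lipase, was lowest in MEKi 2 at 8.62 and highest in vehicle 2 at 9.08. Its probe set can share probes with other genes, and its further probe sets gave other orders of the arrays.

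Psap, the precursor of the saposins that help to digest sphingolipids, lay between 12.48 and 12.81. Ppt1, the palmitoyl-protein thioesterase, lay between 10.22 and 10.50. Grn encodes progranulin, a secreted protein cut into granulins in the lysosome. It was at 12.00 and 12.05 in MEKi and 12.40 and 12.08 in vehicle, and its probe set can share probes with other genes. The second probe set of Grn had MEKi 2 at 11.63, above vehicle 2 at 11.33.

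Of the 4 measured membrane proteins, 0 were called, 2 were highest in vehicle 1 and 3 were lowest in MEKi 1. Scarb2, the receptor that brings glucocerebrosidase to the lysosome, had MEKi 1 at 10.80, MEKi 2 at 11.90, vehicle 1 at 10.99 and vehicle 2 at 10.82. MEKi 2 alone stood above the other 3 arrays. Scarb2 differed by 0.44 between the labels (SE 0.44, adjusted p = 1 in limma), and -0.10 without MEKi 2. Its second probe set was also highest in MEKi 2, at 9.96 against 9.41 to 9.59 in the other arrays.

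Lamp1 and Lamp2 are the main glycoproteins of the lysosomal membrane. Lamp1 lay at 11.89 and 11.91 in MEKi and at 12.19 and 12.00 in vehicle, without overlap. Lamp2 was at 11.83 in vehicle 1 and between 11.18 and 11.29 in the other arrays. Mcoln1, a calcium channel of the lysosome, ranged from 8.08 in MEKi 2 to 8.48 in MEKi 1. The probe sets of Mcoln1 disagreed in sign, with differences between MEKi 1 and vehicle 1 of 0.17, -0.51 and 1.19.

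Of the 3 proton pump subunits, 2 were lowest in MEKi 2 and 0 in MEKi 1. Atp6v0d2, a subunit known from osteoclasts and macrophages, had MEKi 1 at 6.57, MEKi 2 at 5.27, vehicle 1 at 7.33 and vehicle 2 at 6.34. MEKi 2 was lowest and vehicle 1 highest, and MEKi 1 lay above vehicle 2. Between the labels Atp6v0d2 differed by -0.91 (SE 0.62, adjusted p = 1 in limma), and it was -0.26 without MEKi 2 and -0.42 without vehicle 1. Its second probe set had the same highest and lowest arrays, at 6.23 and 4.64.

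Atp6v0d1, the widely expressed counterpart of Atp6v0d2, was at 10.56 and 10.30 in MEKi and at 10.66 and 10.71 in vehicle, without overlap. Atp6v1h, a subunit of the cytosolic part of the pump, had the smallest range of all members, 0.12, with MEKi 1 at 9.68, MEKi 2 at 9.72, vehicle 1 at 9.74 and vehicle 2 at 9.63.

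Macrophage and monocyte markers were highest in vehicle 1, as were most members. Of 16 measured markers, 15 were highest in vehicle 1 and 16 were lower in MEKi 1 than in vehicle 1 (median difference -1.41). MEKi 2 lay above vehicle 2 for 12 of the 16 and below it for 4, with a median of 0.32 against 0.01 for the lysosomal members. Csf1r, the receptor for the growth factor of macrophages, had MEKi 1 at 9.56, MEKi 2 at 10.41, vehicle 1 at 10.76 and vehicle 2 at 9.94. Cd163, a scavenger receptor of tissue macrophages, was at 7.98, 8.97, 10.78 and 10.08, and was 1 of the 4 markers below vehicle 2 in MEKi 2. The summed linear level of the list was 22261, 31614, 51690 and 29728, with the arrays in the same order as for the sum over the members. That order of sums was not particular to macrophages. It was also found for other lists, among them the tumor epithelial, endothelial and cathepsin inhibitor genes. The sum over 7 endothelial markers was 2086, 2693, 3162 and 2131, and 4 of them were highest in vehicle 1. The part of macrophage content in the levels of the lysosomal genes was not tested.

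**Figure D4:**
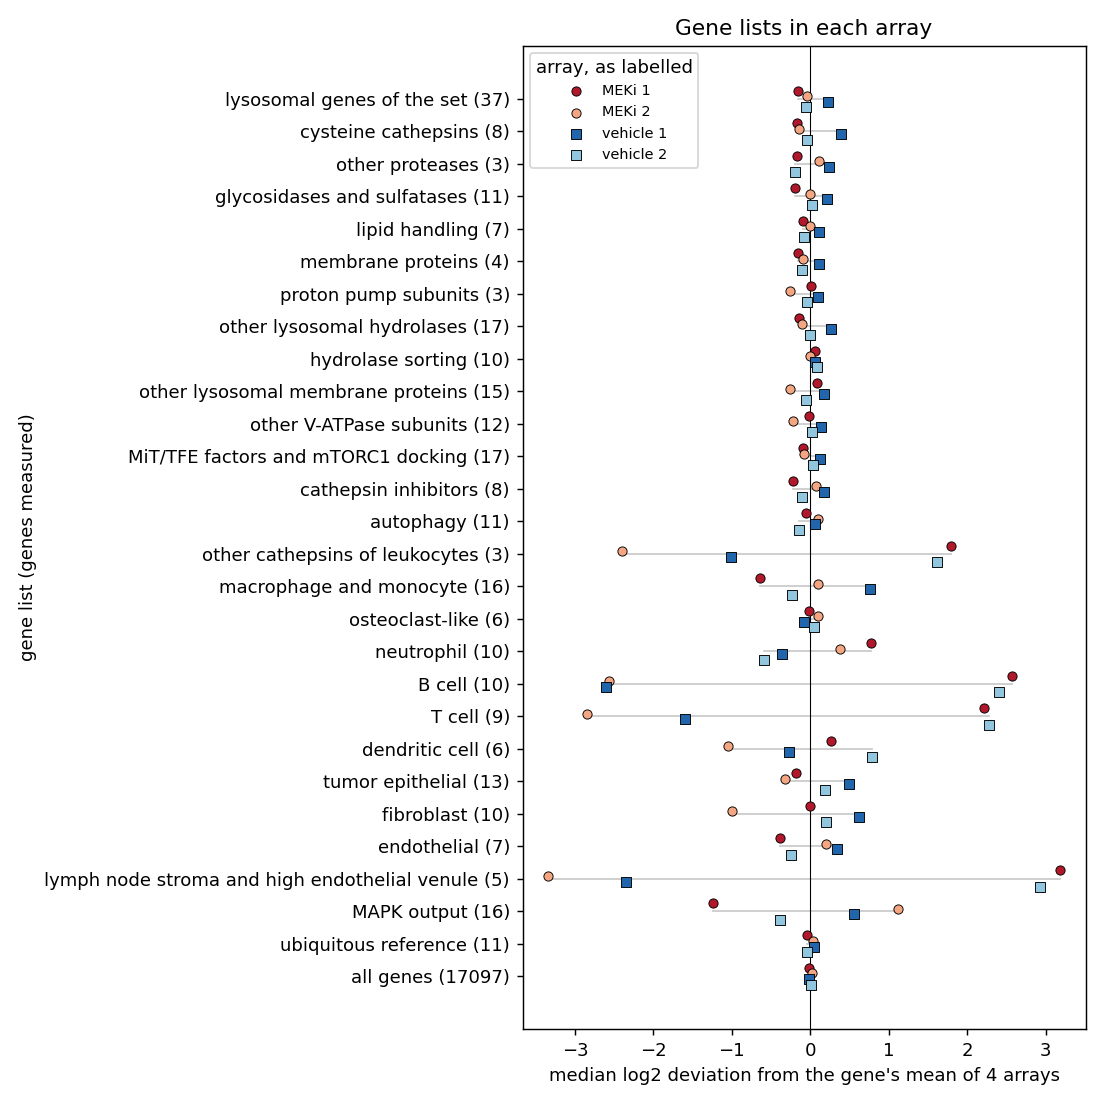
Median log2 deviation of the genes of each list from their own mean over the 4 arrays (x axis), for the lysosomal genes, their roles and the other lists (y axis, with the number of genes measured), with a point for each array and a line over their range. The macrophage and monocyte list is highest in vehicle 1, and the B cell and T cell lists are high in MEKi 1 and vehicle 2.

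Other genes of the lysosome were read from lists, and 0 genes of each list were called in either direction. Of 17 other hydrolases, 14 were lower in MEKi 1 than in vehicle 1 (median -0.47), and the median between MEKi 2 and vehicle 2 was -0.10. Lgmn, the asparaginyl protease that processes cathepsins, was at 10.65, 11.45, 12.01 and 11.05 in MEKi 1, MEKi 2, vehicle 1 and vehicle 2. Pla2g15, a lysosomal phospholipase, was at 8.75, 8.42, 9.50 and 8.90, and both genes were highest in vehicle 1.

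Of 12 other V-ATPase subunits, 10 were lowest in MEKi 2, and the median difference was -0.18 in each pair of same-numbered arrays. Of 15 other membrane proteins, 9 were lower in MEKi 1 than in vehicle 1 and 8 were lower in MEKi 2 than in vehicle 2. Cd68, a lysosomal glycoprotein of macrophages, was at 9.76, 10.38, 11.07 and 10.07 in MEKi 1, MEKi 2, vehicle 1 and vehicle 2, again highest in vehicle 1. The 10 genes of hydrolase sorting had medians of 0.02 and -0.07 in the 2 pairs.

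A further list held MiT/TFE factors and genes for their docking to mTORC1, the kinase complex that holds them in the cytosol. It also held Gpnmb, which is neither. Of the 17 genes of this list, 11 were highest in vehicle 1, Gpnmb among them. Tfeb itself had MEKi 1 at 7.85, MEKi 2 at 6.32, vehicle 1 at 6.33 and vehicle 2 at 7.50. It was thus high in the arrays with high lymphocyte markers and low in those with high Ctsl, Gaa and Asah1. The members Ctsh, Fuca1, Ids and Lipa had the same top pair as Tfeb, MEKi 1 and vehicle 2. The part of lymphocyte content in the level of Tfeb was not tested. Rragd, a GTPase of the docking complex, had the same split, at 6.93, 4.42, 4.33 and 6.26. Tfec, a family member of myeloid cells, was at 7.88, 7.89, 9.23 and 8.27, with vehicle 1 on top.

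Among 8 cathepsin inhibitors, 7 had a higher level in MEKi 2 than vehicle 2 had and 6 were lower in MEKi 1 than in vehicle 1. Cst7, a cystatin of cytotoxic lymphocytes and myeloid cells, was the 1 gene of the list that was lower in MEKi 2 than in vehicle 2, at 9.50, 5.52, 7.36 and 9.09 in MEKi 1, MEKi 2, vehicle 1 and vehicle 2. Serpinb6a, a serpin that inhibits granule serine proteases, was at 10.29, 10.86, 11.36 and 10.69. Its highest array was vehicle 1, as it was for 6 of the 8 cysteine cathepsins among the members. Of 3 other cathepsins of leukocytes (Ctse, Ctsg and Ctsw), 0 were highest in vehicle 1.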

How the data were processed

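The 4 arrays of whole-tumor RNA were grouped by their labels. The authors deposited log2 expression values that had been processed by RMA in R (AFFY package) with background correction and quantile normalization. After removal of 104 controls from the 45141 probe sets, 45037 remained for the test. A symbol was taken from the platform annotation where a probe set had 1 (28898), and not where it had several (551) or none (15588). By Entrez identifier, 28689 matched the mouse gene table, and 0 symbols changed. The probe set with the highest mean stood for a gene.

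The limma package (3.58.1, R 4.3.3) fitted all probe sets with lmFit and eBayes, two-sided, with Benjamini-Hochberg adjustment over the whole table. The fit was tested on simulated data with independent noise of equal size for every probe set. Those data lacked the split of the arrays across the labels, so they checked the code and not the power of the fit here. The labels and methods leave unstated whether the arrays of a label came from separate mice. The p-values therefore reflect the variation among the 4 arrays alone, and part of it may be technical. The number of arrays limits the precision. Each array had its 25th percentile at 3.85 to 3.88, which is taken as the floor.

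Members with a range over 1 log2 unit and the 3 with the smallest range were given in all arrays, and of each other list up to 4 genes with the largest range and a mean over the median of all probe sets were eligible to be named. Other values were added after they had been seen: the fibroblast, macrophage and MiT/TFE genes beyond that rule and the single arrays of further members. The members, lists and tests were chosen with earlier results of these data known. Of the 37 measured members, 21 have several probe sets (71 in all), and a further probe set differed in sign by label for 6. For the difference between MEKi 1 and vehicle 1 this held for 5 members, and for that between MEKi 2 and vehicle 2 for 8. Alternatives covered the filter, the scaling, the threshold, the variance model, the choice of probe set, the block and each array left out.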

Additional observations from a re-analysis of the deposited data

How the results depend on the processing

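The count of called members was 0 in every alternative run, and the count of called probe sets was 0 in all but the scaling on tumor epithelial genes, which gave 8. Whether equal replicate numbers mark a shared batch is not stated. The deviations of same-numbered arrays correlated at -0.764 over probe sets. That value cannot decide it, since it does not separate a batch from the split of the arrays described above. With a replicate block the calls were 0, of members 0, and the median difference of the members stayed at -0.15. With the numbers crossed, an alternative chosen after seeing the data, the calls were also 0.

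The median difference by label was -0.21 after centring on reference genes and 1.15 after centring on tumor epithelial genes, which moved the median of all genes to 1.32, so that members minus all genes was -0.16 in both. It lay between -0.27 and -0.056 with an array left out. Between MEKi 1 and vehicle 1 the median was -0.44 on reference genes and 0.50 on epithelial genes (all genes 0.91). Between MEKi 2 and vehicle 2 it was 0.10 when the probe sets of a gene were averaged, -0.072 on reference genes and 1.72 on epithelial genes (all genes 1.73). Centring on epithelial genes gave Ctsf 0.56, Asah1 1.15 and Atp6v0d2 0.39, all below the 1.32 of all genes, so these sign changes are those of the common shift.

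With an array left out, Gaa lay between -0.53 and 1.05, Arsa between -0.52 and 0.65, Asah1 between -0.64 and 0.34 and Scarb2 between -0.10 and 0.99. With 1 array left in a group, that array was taken to vary like the others.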
